A study of Mus musculus with 14 samples.

Results

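The genes described here are 7 that link inflammation to metabolism, *Irg1*, *Gpr84*, *Vnn1*, *Sod2*, *Nos2*, *Gch1* and *Hmox1*. They are 7 of 27962 gene names on Agilent whole mouse genome arrays, and every non-control probe with one of these names was used, 9 of 41174. *Irg1* and *Gch1* had 2 probes each, called brighter and dimmer here, and the single *Nos2* probe was printed as 10 spots that were averaged. The genes were selected on their measured differences between groups on these arrays, so those differences are given as descriptions. How many of the probes passed the limits of a fit over all probes is counted beside the share of all probes that did, and this is no test of the 9 probes.

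The study asked whether lysines of p65 that are acetylated are needed for gene expression late after TNFα, a cytokine that activates NF-κB. All cells were p65(-/-) mouse embryonic fibroblasts (MEFs) infected with a lentivirus and selected with blasticidin, and were starved overnight before treatment. Wild type cells carried unmutated p65, KTR cells the triple mutant K310/314/315R, K314/315R cells the double mutant and pTV cells the empty vector. Wild type (n = 3), KTR (n = 3), K314/315R (n = 2) and pTV cells (n = 3) received 30 ng/ml mouse TNFα for 3 h, and 3 further wild type samples were left unstimulated (0 h). Replicates of a group were RNA isolations made on different days, and the sources used here name no separate infections for them, so that the spread between them may not include differences between infected lines.

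All these genes are known from inflamed cells. *Irg1*, now named *Acod1*, encodes the mitochondrial enzyme that makes itaconate from an intermediate of the citric acid cycle, and *Gpr84* a receptor for medium-chain fatty acids. *Nos2* encodes the inducible nitric oxide synthase, *Gch1* the first enzyme in the synthesis of its cofactor tetrahydrobiopterin, *Sod2* the mitochondrial superoxide dismutase, *Vnn1* the pantetheinase vanin-1 and *Hmox1* the haem-degrading heme oxygenase-1. Several of them are best known from macrophages, where NF-κB dimers that contain p65 bind κB sites in promoters and enhancers.

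RefSeq promoter sequences (GRCm38.p6) were given for 4 of the 7 genes, *Irg1*, *Gpr84*, *Sod2* and *Gch1*, as windows from 250 bases before to 50 bases after the start. A match to the κB consensus, sought like the other motifs on both strands, stood in the *Gch1* window at -10 to -1 and in the *Sod2* window at -83 to -74 relative to the start, and 4.51% of all 32851 promoters in the table held one. The *Irg1* and *Gpr84* windows held none. The letters TATAAA, found on either strand in 13.6% of promoters, stood on the strand of the gene at -28 to -23 for *Irg1* and on the opposite strand at -188 to -183 for *Gch1*. None of the 4 windows held TGANNNNGC (antioxidant response element, 41.3% of promoters) or TGANTCA (AP-1, 7.81% of promoters). A match of letters is not a measured binding site, and a window without a match does not show that the gene lacks a site. The 250 bases before the start are printed for both genes with a κB match and for *Irg1*, which was lower in both mutants than in wild type without overlap of arrays, with κB matches in capitals.
Sod2, chr17:13007589-13007838, plus strand: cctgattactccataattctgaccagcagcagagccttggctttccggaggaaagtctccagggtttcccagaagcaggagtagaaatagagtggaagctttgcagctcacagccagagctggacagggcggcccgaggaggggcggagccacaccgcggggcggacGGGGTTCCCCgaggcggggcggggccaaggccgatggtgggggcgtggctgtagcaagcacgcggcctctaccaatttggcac
Gch1, chr14:47189414-47189663, minus strand: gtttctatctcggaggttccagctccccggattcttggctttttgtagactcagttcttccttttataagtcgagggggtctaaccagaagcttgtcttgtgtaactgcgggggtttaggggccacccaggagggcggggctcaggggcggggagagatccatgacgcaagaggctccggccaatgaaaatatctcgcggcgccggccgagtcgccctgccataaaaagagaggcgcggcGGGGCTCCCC
Irg1, chr14:103046762-103047011, plus strand: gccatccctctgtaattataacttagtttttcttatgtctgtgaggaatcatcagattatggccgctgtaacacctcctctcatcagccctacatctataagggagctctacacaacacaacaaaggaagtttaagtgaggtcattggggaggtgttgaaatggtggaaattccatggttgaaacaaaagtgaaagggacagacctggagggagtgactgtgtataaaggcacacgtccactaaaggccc

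Signals are given as log2 of the processed Cy3 intensity over the 75th percentile of the same array, so that 0 is the level of that percentile, which lay between 967 and 1442 intensity units. Between 49.9% and 57.7% of spots per array were well above background by the scanner software's own call. *Gch1* and *Hmox1* were well above background on all 14 arrays, and *Sod2* on the 12 arrays that gave it a value. The *Sod2* spot had an outlier flag on KTR replicate 3 and K314/315R replicate 2 and has no value there. Both *Irg1* probes were well above background on 12 arrays, *Gpr84* and *Nos2* on 11 and *Vnn1* on 9, and what was missing fell mostly on the pTV arrays. All 9 probes passed the filter on dim probes, for which 1 group with no array at background was enough.

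The arrays of wild type at 0 h and 3 h, KTR and pTV stood on 3 slides, 1 array of each group per slide and each group always at the same position, so that array position and group cannot be told apart. Both K314/315R arrays were on a further slide with a scan and a software version of their own, so that slide and mutant cannot be told apart for K314/315R. Markers of fibroblasts were well above background on all arrays for 10 of 12 genes, *Lum* on none and *Pdgfrb* on 13 arrays. Of 14 macrophage and leukocyte markers, 8 were on no array, among them the defining *Ptprc*, *Itgam*, *Emr1* and *Sfpi1*, and only *Cd3e* was on all. Their summed log2 signal ranged from -1.04 to -0.86 in wild type at 3 h and from -0.97 to -0.19 in pTV. In KTR it ranged from -0.97 to -0.46, in K314/315R from -1.33 to -1.08 and in wild type at 0 h from -1.01 to -0.88. Of 6 endothelial markers 5 were on no array, and of 6 epithelial markers 2. In bulk RNA, fewer cells that express a gene and less RNA per cell cannot be told apart.

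*Rela* encodes p65, and its brighter probe had a mean log2 signal of 1.53 in wild type at 3 h and 1.01 at 0 h, 1.24 in KTR, 1.71 in K314/315R and 1.18 in pTV, with SDs of 0.01 to 0.40. The sources used here do not say whether the probes lie inside the deleted part of *Rela* or in the introduced sequence, so they check neither the deletion nor the complementation.

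**Figure D1:**
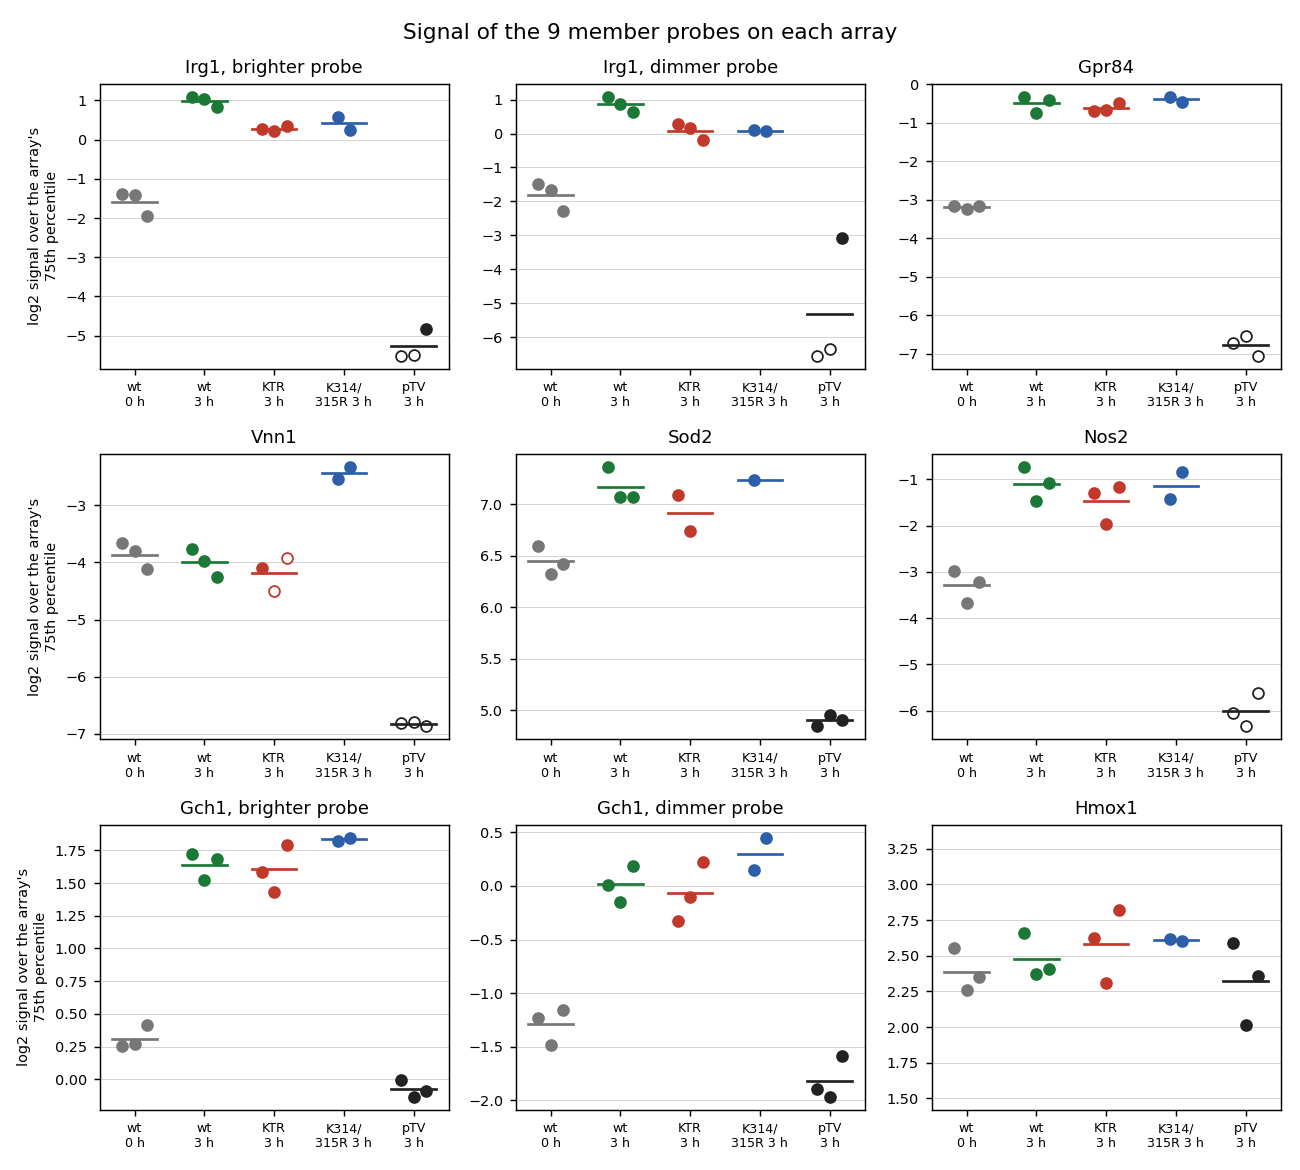
Log2 signal over the 75th percentile of the array (y axis, scaled separately in each panel) of the 9 probes in the 5 groups, 1 point per array, open where the probe was not well above background, with a line at the group mean. All groups that carried p65 lay above pTV for 8 of the 9 probes, *Vnn1* was highest in K314/315R, and *Hmox1* spanned 2.02 to 2.82 over all arrays.

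The first question was how these genes answered 3 h of TNFα in cells with wild type p65. *Irg1*, *Gpr84* and *Nos2* went up between 4.60 and 6.48-fold and *Gch1* by 2.51 and 2.47-fold with its probes, *Sod2* by 1.65-fold, while *Hmox1* and *Vnn1* stayed within the spread of their arrays. Arrays at 3 h and 0 h did not overlap for 7 of the 9 probes, which belong to 5 genes. Over all probes 30.4% did not overlap between these groups (13.5% were higher at 3 h), and since this contrast helped to choose the genes nothing is read from the count. A probe was called where limma's Benjamini-Hochberg adjusted p over all 22172 probes was under 0.05 and the change above 1.8-fold. By this rule 6 of the 9 probes (4 genes) were called higher, and of all probes 1.12% were called higher and 1.55% in either direction. With normexp, another background correction, on all spots, none of the 9 was called, against 17 higher and 6 lower over all probes. Without spots of high local background normexp called 6 of the 9.

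For *Irg1* the brighter probe gave 1.10, 1.04 and 0.85 in the wild type replicates 1 to 3 at 3 h and -1.39, -1.42 and -1.95 at 0 h. The dimmer probe gave 1.09, 0.87 and 0.63 at 3 h against -1.49, -1.67 and -2.27 at 0 h. All stimulated arrays were well apart from all unstimulated ones, and both probes ranked the replicates alike. The fitted log2 difference was 2.58 (standard error 0.20) with the brighter and 2.67 (standard error 0.68) with the dimmer probe. The larger error of the dimmer probe, which pools all 14 arrays, goes with pTV replicate 3, where it read -3.07 against -6.55 and -6.36 on the other pTV arrays. It was called in 7 of 15 other settings of the analysis and lost the call without any 1 of the 6 wild type arrays, while the brighter probe was called in 14 of 15.

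The receptor gene *Gpr84* read -0.34, -0.74 and -0.41 at 3 h and -3.17, -3.24 and -3.17 at 0 h. Its log2 difference of 2.70 (standard error 0.14) was the highest of the 9 probes in this comparison. Within the slides, each holding an array of either time, it was 2.82, 2.51 and 2.76.

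The nitric oxide synthase gene *Nos2* read -0.73, -1.46 and -1.07 after TNFα and -2.98, -3.67 and -3.22 without it. Replicate 2 was lowest at both times, and the log2 difference was 2.20 (standard error 0.28). *Gch1*, whose product feeds the same reaction with its cofactor, read 1.72, 1.52 and 1.68 at 3 h and 0.25, 0.27 and 0.41 at 0 h with the brighter probe. Its log2 differences were 1.33 (standard error 0.10) and 1.31 (standard error 0.16) for its brighter and dimmer probes, so that the probes gave nearly the same change.

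*Sod2* read 7.36, 7.07 and 7.07 at 3 h and 6.60, 6.33 and 6.42 at 0 h. The groups were separate on every slide, with within-slide differences of 0.76, 0.75 and 0.65, but the fitted log2 difference of 0.72 (standard error 0.13) was under the 1.8-fold limit. *Hmox1* read 2.66, 2.37 and 2.41 at 3 h and 2.55, 2.26 and 2.35 at 0 h, an overlap. Its log2 difference was 0.09 (standard error 0.16), and within the slides 0.11, 0.11 and 0.06. *Vnn1* read -3.77, -3.98 and -4.25 at 3 h and -3.67, -3.80 and -4.12 at 0 h, also an overlap. Its difference was -0.14 (standard error 0.17), and within the slides -0.10, -0.18 and -0.13.

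The second comparison, wild type over pTV with both stimulated for 3 h, asked how much signal depended on p65. All 9 differences were positive, the arrays were separate for 8 probes (6 genes) and only *Hmox1* overlapped. These 8 were also called with a limit of 2-fold, against 3.59% of all probes called higher and 5.04% in either direction. Separate arrays were found for 34.5% of all probes, 16.2% with wild type higher. As before, the contrast was used in choosing the genes.

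*Irg1* read -5.52, -5.48 and -4.83 in pTV with the brighter probe, and only replicate 3 was well above background there. The fitted log2 differences of 6.27 (standard error 0.20) and 6.19 (standard error 0.68) rest on pTV signals of which only 1 in 3 was well above background. With the remaining pTV arrays set to the lowest signal well above background on each, wild type was at least 52.2-fold higher with the brighter and at least 31.7-fold higher with the dimmer probe. These bounds, like those given below, hold for the processed signal. Normexp gave smaller log2 differences, 4.46 and 4.12 without spots of high local background and 3.61 and 3.22 on all spots. In the processed signal the dimmer probe gave 7.31 without pTV replicate 3.

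*Gpr84*, at -6.71, -6.54 and -7.05, *Nos2*, at -6.06, -6.34 and -5.61, and *Vnn1*, at -6.82, -6.80 and -6.87, were not well above background on any pTV array. For these genes only a lower bound can be given, the wild type mean against the higher of the pTV signal and the lowest signal well above background on each array. By this bound *Gpr84* was at least 19.2-fold, *Nos2* at least 12.7-fold and *Vnn1* at least 1.69-fold higher in wild type. These bounds hold for the processed signal, and normexp gave smaller log2 differences, 3.38 for *Gpr84* and 2.66 for *Nos2* without spots of high local background and 2.68 and 2.05 on all spots, where *Nos2* was not called. For *Vnn1*, dim also in wild type, the log2 difference of the measured means was 2.83, and 0.74 with a normexp background correction that left out spots of high local background, where the probe was not called.

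*Sod2* was well above background in pTV, at 4.84, 4.95 and 4.90, and 4.81-fold higher in wild type, a log2 difference of 2.27 (standard error 0.13). *Gch1* read -0.01, -0.13 and -0.09 in pTV with its brighter probe, and its log2 differences were 1.72 (standard error 0.10) and 1.83 (standard error 0.16). *Hmox1* read 2.59, 2.02 and 2.36 in pTV and differed by 0.16 (standard error 0.16).

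**Figure D2:**
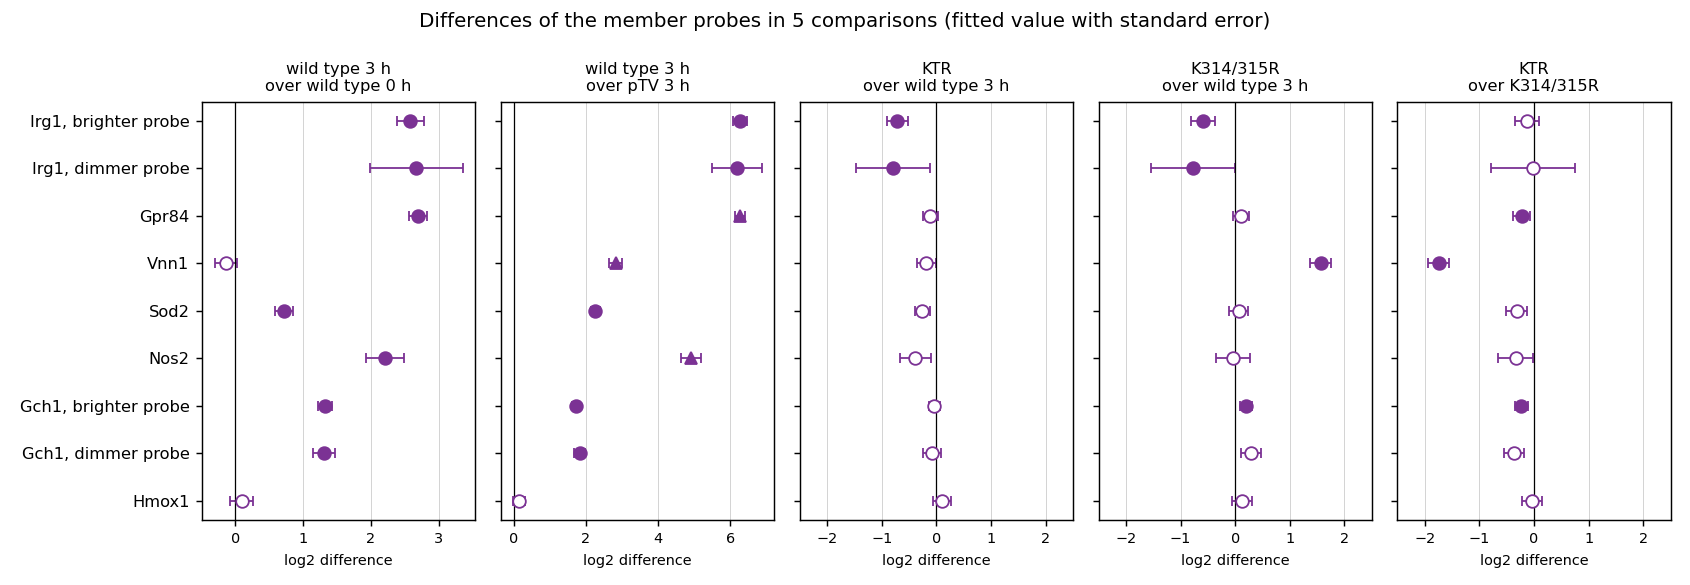
Fitted log2 differences of the 9 probes with their standard errors (x axis, scales differ between panels) in 5 comparisons, filled where no array of one group lay within the range of the other, triangles where no pTV array was well above background so that the value is no measured fold. *Sod2* is open in the last 3 panels since arrays lacked a value. *Irg1* lay below 0 in both mutants over wild type, and *Vnn1* stood at 1.56 for K314/315R and at -1.75 for KTR over K314/315R.

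Unstimulated wild type cells were also set against stimulated pTV cells, groups that differ in both p65 and TNFα. At 0 h, 8 of 9 probes lay above every pTV array, against 22.4% of all probes. *Irg1* was at least 8.71 and 4.98-fold higher in unstimulated wild type than in pTV with its brighter and dimmer probes, *Sod2* 2.92-fold, *Gch1* 1.31 and 1.44-fold, *Gpr84* at least 2.96-fold, *Nos2* at least 2.77-fold and *Vnn1* at least 1.86-fold. *Hmox1* was 1.05-fold with overlapping arrays. A stimulated pTV group is the sole pTV group here, so the change of pTV cells with TNFα was not measured.

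The third question was whether the triple mutant KTR gave other levels than wild type at 3 h. *Irg1* was lower in KTR, and the other 6 genes had differences between -0.38 and 0.10. None of the 9 probes was called by limma, against 0.167% of all probes (0.14% lower), and of the 8 probes with a value on every array only those of *Irg1* were separate, against 14.2% of all probes (5.06% lower). In this comparison the median log2 difference was -0.18 over the 9 probes and 0.06 over all probes.

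In KTR replicates 1 to 3 *Irg1* read 0.28, 0.21 and 0.35 with the brighter and 0.27, 0.15 and -0.20 with the dimmer probe, each array below all wild type arrays at 3 h. The fitted differences were -0.71 (standard error 0.20) and -0.79 (standard error 0.68), that is 1.64 and 1.73-fold lower, under the 1.8-fold limit. Within the slides the brighter probe gave -0.82, -0.83 and -0.49 and the dimmer -0.82, -0.72 and -0.83, so that it was lower on each of the 3 slides. The sign held in all 15 other settings for either probe, with ranges of -0.79 to -0.47 and -0.91 to -0.52. Relative to pTV, with 1 of 3 arrays well above background, KTR was at least 31.8 and 18.3-fold higher with these probes.

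*Nos2* read -1.29, -1.96 and -1.16 in KTR, overlapping wild type, with a difference of -0.38 (standard error 0.28). Within the slides it was -0.56, -0.50 and -0.09, and that of *Sod2* -0.27 and -0.33 on the slides with values. *Gpr84*, *Gch1*, *Hmox1* and *Vnn1* had both signs within the slides. *Gpr84* read -0.69, -0.66 and -0.49, a difference of -0.12 (standard error 0.14), and both *Gch1* probes differed by less than their standard error, at -0.04 (standard error 0.10) and -0.09 (standard error 0.16). *Sod2* had 2 KTR values, 7.09 and 6.74, and a difference of -0.25 (standard error 0.14). *Hmox1* read 2.62, 2.31 and 2.82, with a difference of 0.10 (standard error 0.16). *Vnn1*, at -4.11, -4.51 and -3.93, was well above background only on KTR replicate 1 and differed by -0.18 (standard error 0.17). KTR arrays also had the most flagged spots, 75 to 326 per array against 1 to 108 elsewhere. With these spots kept, the 9 differences ranged from -0.83 to 0.06 and 0 were called.

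K314/315R was compared with wild type in the same way, and *Vnn1* was higher. It read -2.54 and -2.33 in K314/315R against -3.77, -3.98 and -4.25 in wild type at 3 h, a log2 difference of 1.56 (standard error 0.19) or 2.96-fold. It was the only one of the 9 probes past the limits, against 1.2% of all probes in either direction and 0.167% higher, and nothing is read from this since the contrast was used in choosing the genes. The K314/315R arrays were also 1.43 above unstimulated wild type in mean log2 signal, so that they had the highest *Vnn1* of the 5 groups. Without K314/315R replicate 2 the probe was not called, and calls over all probes went from 37 higher and 228 lower to 3 and 15. It was not called in a fit of the 5 arrays of the compared groups alone, and the difference ranged from 0.39 with normexp on all spots, or 1.00 without those of high local background, to 1.69 with quantile normalization.

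*Irg1* read 0.57 and 0.25 with the brighter and 0.09 and 0.09 with the dimmer probe in K314/315R, below wild type without overlap. The differences of -0.58 (standard error 0.22) and -0.77 (standard error 0.76) were of the size seen in KTR. The brighter *Gch1* probe was slightly higher, at 1.82 and 1.85, a difference of 0.19 (standard error 0.11), and its dimmer probe, at 0.15 and 0.45, overlapped with a difference of 0.28 (standard error 0.18). In all, 4 of the 8 probes with complete values were separate, 2 in each direction, against 36.2% of all probes (19% higher). Differences of *Gpr84*, *Nos2*, *Sod2* and *Hmox1* lay between -0.04 and 0.13, *Sod2* with a single K314/315R array at 7.23.

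The mutants were then set against each other, KTR over K314/315R, which differ by the further lysine changed in KTR. They also stood on different slides with different scans and software versions, which cannot be told apart from the lysine. All 9 differences were negative, with a median of -0.23 against 0.03 over all probes. *Vnn1*, well above background on 1 of 3 KTR arrays, had a log2 difference of -1.75 (standard error 0.19) and was at least 3.16-fold lower in KTR with the other arrays set to the lowest signal well above background. This bound holds for the processed signal, and normexp without spots of high local background gave a smaller difference, -0.94. *Vnn1* was the only one of the 9 probes past the limits, against 2.55% of all probes in either direction and 0.492% called lower. It was not called with normexp on all spots or in a fit of only the 2 groups compared. *Gpr84*, with a difference of -0.22 (standard error 0.15), and the brighter *Gch1* probe, with -0.23 (standard error 0.11), also had separate arrays, as did 30.8% of all probes (12.2% lower). *Irg1* overlapped between the mutants, with -0.13 (standard error 0.22) and -0.02 (standard error 0.76), and *Hmox1* differed by -0.03 (standard error 0.18). The error of the dimmer *Irg1* probe is pooled over all 14 arrays and goes with pTV replicate 3. The SDs of that probe were 0.25 in KTR and 0.003 in K314/315R. With the brighter probe the difference of -0.13 was smaller than those from wild type, -0.71 for KTR and -0.58 for K314/315R. Whether the mutants had the same *Irg1* level was not tested.

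In order of mean level, wild type at 3 h was highest for *Irg1*, followed by K314/315R and KTR, which overlapped, then wild type at 0 h and pTV, each apart from the next. *Nos2* and the dimmer *Gch1* probe had the 3 stimulated p65 groups at the top, each overlapping its neighbour, then wild type at 0 h, then pTV. *Gpr84* had the same order, with wild type at 3 h overlapping either mutant and the mutants apart from each other. *Sod2* also had the stimulated p65 groups on top, then wild type at 0 h and pTV, but with 1 and 2 arrays in the mutants. *Vnn1* had K314/315R on top, then the wild type groups and KTR overlapping, then pTV. All neighbours overlapped for *Hmox1*.

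By Pearson correlation over the 14 arrays, the genes most like *Gch1* among 18524 probes well above background everywhere were *Rab8b* (0.987), *Rnd1* (0.986) and *Il6* (0.986), and those most like *Hmox1* were *Gpc4* (0.902), *Adprh* (0.901) and *Serinc3* (0.899). These values describe patterns over arrays that fall into 5 groups and share their slides.

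Genes of the same pathways were listed by role and tested. Of 151 symbols, 136 had a probe, and 165 probes of 113 genes passed the filter on dim probes. TNFα raised 11 of these probes and lowered 1 in wild type cells (7.27% called, against 1.55% of all probes). These belong to 10 genes, and all adjusted p-values below are from limma over all 22172 probes.

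Among arginine and nitric oxide genes, *Arg2*, a mitochondrial arginase that competes with *Nos2* for arginine, rose from -3.76, -3.80 and -3.89 to -1.73, -1.95 and -1.57. Its log2 difference was 2.06 (standard error 0.23, adjusted p = 3.03e-04), with no overlap. *Slc7a2*, an arginine importer, rose by 1.07 (standard error 0.23, adjusted p = 0.0219), a call that was lost in 5 of the 6 fits without 1 wild type array, all but that without replicate 1 at 3 h. These were 2 of the 14 probes of that list.

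The list of haem, iron and Nrf2 target genes, to which *Hmox1* belongs by function, had 6 probes higher and 1 lower of 35. *Slc7a11*, the cystine importer and a known Nrf2 target, rose by 2.25, 2.20 and 2.18 with its 3 probes (standard errors 0.11, 0.11 and 0.19, adjusted p up to 6.37e-05). The remaining called genes of this list, named after their values were seen, were *Maff*, *Mt1*, *Mt2* and *Slc40a1*. The metallothioneins *Mt1* and *Mt2* rose by 0.86 and 1.06, *Mt1* not called without replicate 1 at 3 h or replicate 3 at 0 h. *Maff*, a small Maf transcription factor, rose by 1.44 (standard error 0.09, adjusted p = 6.74e-06) but read 4.11, 3.88 and 3.92 in pTV, each above its stimulated wild type levels of 3.79, 3.81 and 3.75. *Slc40a1*, the iron exporter ferroportin, fell by 1.84 on the log2 scale (standard error 0.15, adjusted p = 4.23e-05).

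*Gpr109a*, the niacin receptor and 1 of 11 probes for fatty acid sensing and oxidation, rose by 1.81 (standard error 0.47, adjusted p = 0.0488) from a 0 h level well above background on 2 of 3 arrays, and this call was lost without any 1 of the 6 wild type arrays. Of 16 probes for other cytokine-linked enzymes, those of *Ch25h*, which makes 25-hydroxycholesterol, and *Pfkfb3*, a glycolytic regulator, rose by 1.49 (standard error 0.26, adjusted p = 0.0064) and 1.00 (standard error 0.14, adjusted p = 0.0021). None of the 33 probes of the citric acid cycle, 13 of coenzyme A synthesis, 9 of tetrahydrobiopterin and 34 of superoxide and peroxide handling passed the test, where 4, 1, 0 and 5 had an unadjusted p under 0.05. The median log2 difference over the list of all related probes was -0.03, as over all probes (-0.04).

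**Figure D3:**
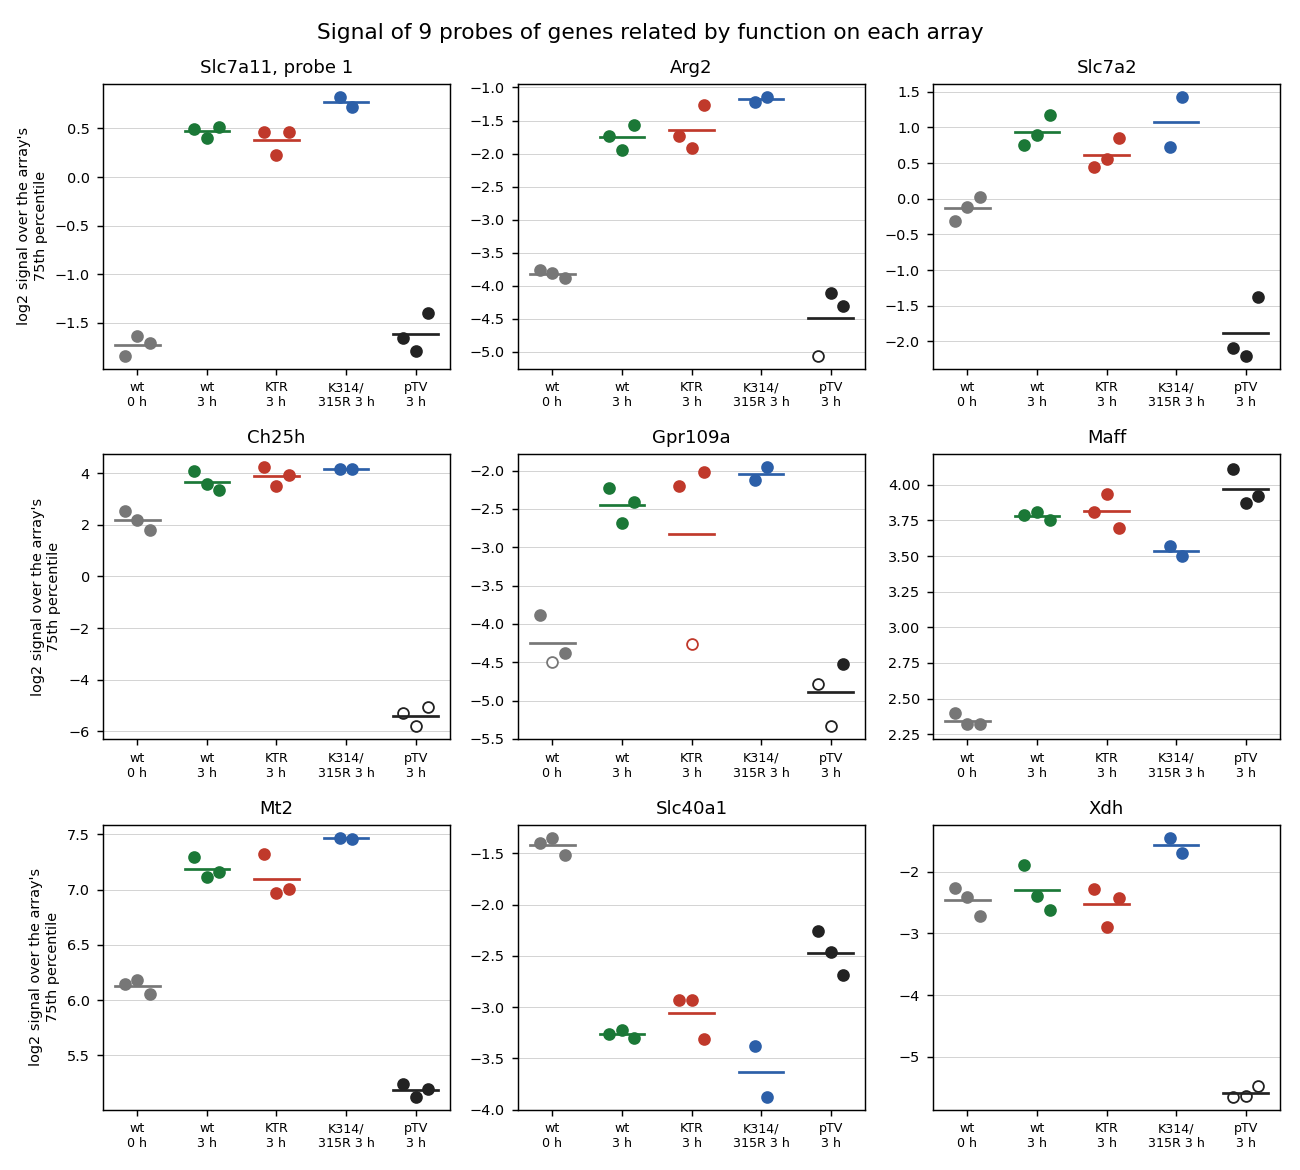
Log2 signal over the 75th percentile of the array (y axis, scaled separately) of 9 probes of functionally related genes in the 5 groups, drawn as in the plot of the member genes. *Maff* in pTV stood above its stimulated wild type level, *Ch25h* was between -5.81 and -5.06 in pTV and at 1.81 or more elsewhere, and *Slc40a1* was highest in unstimulated wild type.

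Wild type was higher than pTV for 16 of the 165 probes and lower for 0 (9.7% called, against 5.04% of all probes). These 16 probes belong to 12 genes. *Ch25h* was not well above background in pTV and at least 346-fold higher in wild type (adjusted p = 6.14e-10). *Hdc*, histidine decarboxylase, was at least 8.33-fold and *Tyki*, an interferon-inducible mitochondrial nucleotide kinase, at least 8.68-fold higher with its brighter probe (adjusted p = 3.24e-07 and 5.49e-07). *Xdh*, xanthine dehydrogenase, was at least 5.48-fold higher, and *Glrx* and *Sod3*, the extracellular superoxide dismutase, differed by 1.32 and 1.28 on the log2 scale. *Slc7a2* differed by 2.83. *Arg2*, well above background on 2 of 3 pTV arrays, was at least 6.18-fold and *Gpr109a*, on 1 of 3, at least 4.48-fold higher in wild type. *Slc7a11* differed by 2.30, 2.08 and 1.98 with its probes and *Mt2* by 2.00 (adjusted p = 9.13e-08).

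In the same comparison 67 of all 165 related probes had an unadjusted p under 0.05. No tetrahydrobiopterin gene was called, though 7 of the 9 probes of that list were among them. Of these 7, 5 were negative, opposite in sign to *Gch1*, and 2, both of *Pts*, were positive. *Gchfr*, the feedback regulator of the *Gch1* enzyme, differed by -0.65 (standard error 0.20, adjusted p = 0.0451) and *Qdpr*, which regenerates the cofactor, by -0.61 (standard error 0.14, adjusted p = 0.0104), both under the 2-fold limit. *Pts*, *Gchfr* and *Qdpr* were named after their values were seen.

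Between mutants and wild type little of this list passed. In KTR 0 of 165 probes were called by limma (13 with an unadjusted p under 0.05), against 0.167% of all probes. With the slide as a random block 1 was called, *Hdc*, named after its values were seen, which read -2.53, -3.04 and -2.45 in KTR and -1.41, -1.84 and -1.86 in wild type at 3 h. Without the block its log2 difference was -0.97 (standard error 0.23, adjusted p = 0.153). In K314/315R 1 probe was lower (0.606%, against 1.2% of all probes), a dim *Prdx6* probe (AK081980) not well above background in K314/315R and at least 1.62-fold lower than wild type (adjusted p = 0.0481). The remaining *Prdx6* probes, at higher signal, differed by -0.03 and -0.14, and the call was lost in 9 of 10 other settings and without any single array of the compared groups. KTR was lower than K314/315R for *Sod3* (log2 difference -1.14, standard error 0.26, adjusted p = 0.0291) and *Xdh* (-0.96, standard error 0.23, adjusted p = 0.0323), 1.21% of the 165 probes against 2.55% of all probes.

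*Sod3* read -1.78, -2.77 and -2.17 in KTR and -1.32 and -0.88 in K314/315R, and *Xdh* -2.28, -2.90 and -2.42 against -1.45 and -1.70. Wild type at 3 h lay in between by its means, at -1.54, -1.82 and -1.62 for *Sod3* and -1.90, -2.40 and -2.62 for *Xdh*, and overlapped KTR. Neither call held without KTR replicate 2, without K314/315R replicate 1 or without K314/315R replicate 2, with the slide as a random block, or in a fit of the 2 groups alone. *Sod3* also lost it without KTR replicate 3.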

How the data were processed

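The authors hybridised Cy3-labelled RNA of each sample to 1 Agilent array and deposited the scanner output, whose processed signal is an intensity with background subtracted and detrended by Feature Extraction (9.1 per the labels, 9.1.1.1 and 9.1.3.1 per the file headers). Spots with an outlier flag (1 to 326 per array) were left out, saturated ones (0 to 19) kept, spots of a probe averaged, and log2(intensity) minus the array's 75th percentile was used. The deposited normalized intensity table held the same values times 1 factor per array (0.837 to 1.20) within 1% for at least 99.7% of probes. Probes that were well above background throughout 1 or more groups (22172 of 41174, 14880 gene names) were fitted over all 14 arrays with limma 3.58.1 in R 4.3.3, with the spread shared by all groups and Benjamini-Hochberg adjustment. Standard errors are from this fit.

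The thresholds were an adjusted p under 0.05 with over 1.8-fold change, or 2-fold for wild type over pTV. The members, lists and tests were chosen with earlier results of these data known. Named were all members, up to 3 called probes with the largest change per list and comparison, and 3 genes most like each member measured on all arrays. The *Slc7a11* probe at 1.98 for wild type over pTV and the genes marked as named after their values were seen are additions. Alternatives were normexp background correction, quantile normalization, other filters, slide and replicate blocks, outlier spots kept, the deposited table, fits of 2 groups and leaving out each array. Replicate numbers mark slides, and same-numbered arrays of slides 1 to 3 deviated together (18 correlations of 0.308 to 0.624, against -0.516 to 0.113 for 36 differently numbered pairs), which did not hold for K314/315R (8 of -0.0906 to 0.416). Precision is limited by how few arrays each group had.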

Additional observations from a re-analysis of the deposited data

How the results depend on the processing

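With the replicate number as a block, counts of called probes were unchanged, at 6, 8, 0, 1 and 1 of the 9 member probes and 12, 16, 0, 1 and 2 of the 165 related probes, in the order wild type 3 h over 0 h, wild type over pTV, KTR over wild type, K314/315R over wild type and KTR over K314/315R. The same order is used here throughout. Normexp on all spots gave 0, 6, 0, 0 and 0 member probes and 2, 4, 0, 0 and 0 related probes. In that fit up to 19 spots per array with a local background over 3 times the median reached signal minus background of -65203 on wild type 3 h replicate 1, and without them, an alternative chosen after seeing the data, the counts were 6, 7, 0, 1 and 1 and 11, 14, 0, 0 and 1. When each probe had to be well above background on all 14 arrays, 3 member probes were left and 2, 2, 0, 0 and 0 called, and of 141 related probes 9 were called for wild type over pTV, 0 for K314/315R over wild type and 1 for KTR over K314/315R. A fit of only the 2 groups compared called 0 members and 0 related probes in both K314/315R comparisons. For K314/315R over wild type, the related count was also 0 with quantile normalization, without a filter, with the slide as a random block, with outlier spots kept and in the deposited table. Without a filter on dim probes, the related counts were 8 for KTR over wild type and 6 for KTR over K314/315R, and with the random block 1, of *Hdc*, and 0. Leaving out 1 array at a time, member counts ranged from 5 to 5, 8 to 8, 0 to 0, 0 to 1 and 1 to 1, and related counts from 9 to 11, 14 to 17, 0 to 1, 0 to 0 and 0 to 3. The member calls lost there were *Vnn1* in K314/315R over wild type without K314/315R replicate 2, and the dimmer *Irg1* probe in wild type 3 h over 0 h without any 1 array. The related probe called without KTR replicate 1 in KTR over wild type was of *Prdx6*. No difference of a called member probe changed sign. Signals below background limit *Gpr84*, *Nos2* and *Vnn1* in pTV to bounds. Over all probes, quantile normalization gave 48 higher and 66 lower calls for K314/315R over wild type, against 37 and 228, and 214 and 185 for KTR over K314/315R, against 456 and 109. Without a filter the median of all probes moved to 0.15 in KTR over wild type and 0.27 in KTR over K314/315R.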
